A study of Mus musculus with 12 samples.

Results

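A set of 10 genes of DNA methylation and Polycomb repression was followed through 4 culture conditions of mouse CD8 T cells: the maintenance pair Dnmt1 and Uhrf1, the de novo methyltransferases Dnmt3a and Dnmt3b, the methylcytosine dioxygenases Tet1, Tet2 and Tet3, and the Polycomb repressive complex 2 (PRC2) genes Ezh1, Ezh2 and Suz12. They were picked by gene symbol. All 10 were among the 46078 genes of the count tables, and all 10 passed the filter on low counts, which kept 14009 genes. CD8 T cells are the lymphocytes that kill infected cells, and the title of the study names resident memory cells made in culture as its aim. The cells came from spleen of C57BL/6 mice, and RNA was taken at day 7. In the first group TGFβ and all-trans retinoic acid (RA) were both added to IL-2 and IL-15 (TGFβ + RA), in the second TGFβ alone was added (TGFβ), in the third RA alone (RA), and the fourth had IL-2 and IL-15 only (IL-2 + IL-15). Every group thus received both interleukins, and each holds 3 libraries. The labels name biological replicates without saying whether they came from separate mice, so the p-values describe how these libraries scatter, which may be partly technical. The labels give no dose, no sort and no cell purity.

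DNA methylation in vertebrates sits mostly on cytosines that precede a guanine. When a chromosome is copied, Uhrf1 binds the new DNA at sites where the old strand alone is methylated and brings in Dnmt1, which methylates the new strand. Dnmt3a and Dnmt3b place methyl groups on unmethylated DNA, and the Tet enzymes oxidise methylcytosine on the way to its removal. PRC2 methylates histone H3 on a lysine that marks silenced genes: Ezh2 or Ezh1 is its catalytic subunit, and Suz12 is part of the core that neither can work without. Ezh2 is known from dividing cells and Ezh1 from resting ones. In CD8 T cells, Dnmt3a and Ezh2 are known for silencing genes of naive and early memory cells while effector cells form.

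Libraries held 18300206 to 33477037 counts, and TMM scaling factors lay between 0.958 and 1.03. RA replicate 3 stood apart from the others of its group, since the chi-square of its gene counts, divided by the degrees of freedom, was 26 and 22.1 against them, where all other pairs of one group gave 4.02 to 13.5. Results that use the RA group are therefore also given without it where the value matters. The CD8 T cell list of 8 markers was detected in every library and summed to 8416 to 8716 CPM (read counts relative to the TMM-scaled library size) in TGFβ + RA, 7476 to 7796 in TGFβ, 5156 to 5375 in RA and 5114 to 5649 in IL-2 + IL-15. Of other cells, the B cell list of 6 genes summed to 13.0 to 30.6 CPM over the 12 libraries, nearly all of it Cd79b, with the defining gene Ms4a1 at 0 to 1 counts. The myeloid list of 9 genes summed to 3.33 to 27 CPM in TGFβ + RA, 7.57 to 12 in TGFβ, 11.2 to 25.6 in RA and 38.4 to 49.2 in IL-2 + IL-15, most of it the integrin gene Itgam in every library but TGFβ + RA replicate 3. Its defining genes Adgre1 and Csf1r stayed at 0 to 6 counts, while that library had 323 counts of Lyz2 and 177 of S100a9. The NK cell list of 5 genes summed to 72.7 to 87.2, 195 to 221, 116 to 231 and 206 to 323 CPM in the same order of groups, with the defining gene Ncr1 at 0 to 14 counts. Other genes of that list were higher: Eomes had 396 to 4431 counts over all libraries and Klrc1 582 to 4675. Klrb1c had 6 to 37 counts in the groups with TGFβ, 355 to 1164 in RA and 225 to 451 in IL-2 + IL-15. The CD4 T cell list of 3 genes gave 26.1 to 35.3 CPM with TGFβ, with or without RA, and 66.8 to 90.9 CPM without it. Its defining gene Cd4 had 7 to 70 counts. The list of 6 erythroid and stromal genes gave 55.4 to 106 CPM over all libraries, with Hba-a1 at 0 to 3 counts and Col1a1 at 19 to 42. The part of other cells in the results below was not tested.

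The sequences shown here are the start regions of the 4 members whose promoter window held a letter pattern of E2F factors, which drive genes of DNA replication. RefSeq windows of GRCm38.p6, running from 250 bases before to 50 bases after each annotated start, were searched on both strands for TTTNNCGC with C or G at each N. No other motif was searched. The pattern was in 744 of 32851 windows (2.26%), and in 4 of the 15 windows of the 10 members. The 30 bases around each match are given 5′ to 3′ on the strand of the gene, with the match in capitals. The matches lie 185 bases before the start in Uhrf1 (chr17:56304117-56304146, plus strand), 219 before it on the opposite strand and 33 after it in Dnmt1 (chr9:20952824-20952853 and chr9:20952574-20952603, minus strand), 3 after it in Ezh2 (chr6:47595009-47595038, minus strand) and 219 before it in Suz12 (chr11:79992876-79992905, plus strand).
Uhrf1 before the start: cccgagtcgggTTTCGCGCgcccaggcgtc
Dnmt1 before the start: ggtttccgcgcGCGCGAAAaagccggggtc
Dnmt1 after the start: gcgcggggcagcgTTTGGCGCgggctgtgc
Ezh2 after the start: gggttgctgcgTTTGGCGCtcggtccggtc
Suz12 before the start: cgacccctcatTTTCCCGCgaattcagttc
For Uhrf1, the member with the largest change, the 250 bases before this start (chr17:56304063-56304312, plus strand, inside the annotated gene but outside its exons) read as follows, with the same match in capitals.
Uhrf1 upstream region: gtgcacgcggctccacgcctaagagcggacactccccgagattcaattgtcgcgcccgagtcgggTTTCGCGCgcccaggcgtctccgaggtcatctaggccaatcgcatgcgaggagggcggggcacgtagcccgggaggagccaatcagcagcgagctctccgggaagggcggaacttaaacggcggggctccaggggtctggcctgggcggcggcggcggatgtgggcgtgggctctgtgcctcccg
A match is a run of letters and not a bound site, and the other 6 members had none in these windows. Dnmt1 has 2 further windows and Uhrf1 has 1 further window without it. The 300 bases of a member's window held 2 to 57 CpG dinucleotides, where the median of all windows was 7. The member windows with a match held 31 to 41. The pattern itself holds a CpG, so its share of all windows is not a like comparison for windows so rich in CpG.

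Uhrf1 (chr17:56303321-56323486, plus strand), the adaptor that brings Dnmt1 to newly copied DNA, was the member that fell furthest. It stood at 8.42, 9.32 and 7.39 CPM in the TGFβ + RA libraries, 92.1, 78.6 and 78.8 in TGFβ, 70.7, 73.8 and 52.1 in RA, and 136, 118 and 121 in IL-2 + IL-15. No TGFβ + RA library came near any other, and the 4 groups did not overlap. Against IL-2 + IL-15 it was 14.9-fold lower in TGFβ + RA (log2 fold change -3.89 ± 0.14 SE, edgeR quasi-likelihood adjusted p 7.06e-11), where TGFβ alone gave -0.59 ± 0.11 and RA alone -0.93 ± 0.11. From the lowest, the order of levels was TGFβ + RA, RA, TGFβ, IL-2 + IL-15. The step between TGFβ and RA was the least firm: the log2 fold change of 0.34 (adjusted p 0.0223) was 0.19 (adjusted p 0.0747) without RA replicate 3 and 0.26 (adjusted p 0.102) without TGFβ replicate 1. In these bulk libraries, fewer cells that express a gene and less RNA of it per cell cannot be told apart, here and for every member.

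Dnmt1 (chr9:20907209-20959888, minus strand), the methyltransferase that copies methylation onto new strands, followed the same direction over a smaller range. Its values were 148, 154 and 148 CPM in TGFβ + RA, 247, 236 and 232 in TGFβ, 282, 279 and 243 in RA, and 349, 311 and 312 in IL-2 + IL-15. TGFβ + RA was lowest in all 3 libraries and IL-2 + IL-15 highest in all 3. Against IL-2 + IL-15 the log2 fold change was -1.11 ± 0.06 in TGFβ + RA (2.16-fold lower, adjusted p 4.72e-09), -0.44 ± 0.06 in TGFβ and -0.27 ± 0.06 in RA, and without RA replicate 3 the last value was -0.20 (adjusted p 0.0126). TGFβ and RA overlapped, since RA replicate 3 lay inside the TGFβ range. Their difference of -0.17 (adjusted p 0.0364) missed the threshold in 7 of 12 alternative settings.

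Per length, the balance of this pair moved as well. On the TPM scale, which divides counts by the length of all annotated exons and scales each library to the same sum, Uhrf1 stood at 6.82 ± 0.788 in TGFβ + RA, 67.4 ± 6.47 in TGFβ, 46.9 ± 7.0 in RA and 90.8 ± 6.48 in IL-2 + IL-15 (SD, n = 3 each), and Dnmt1 at 70.5 ± 1.41, 111 ± 4.06, 111 ± 5.13 and 136 ± 8.34 in the same order. Dnmt1 counts per kilobase were 10.2, 9.53 and 11.5 times those of Uhrf1 in the TGFβ + RA libraries, 1.55, 1.73 and 1.7 times in TGFβ, 2.3, 2.18 and 2.69 times in RA, and 1.48, 1.53 and 1.49 times in IL-2 + IL-15. Only TGFβ + RA stood far from the other groups in this ratio. The ranking within a library rests on the lengths used, but the difference of this ratio between groups does not. For single members, group orders and overlaps are those in CPM unless TPM is named, and some of them differed in TPM.

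**Figure D1:**
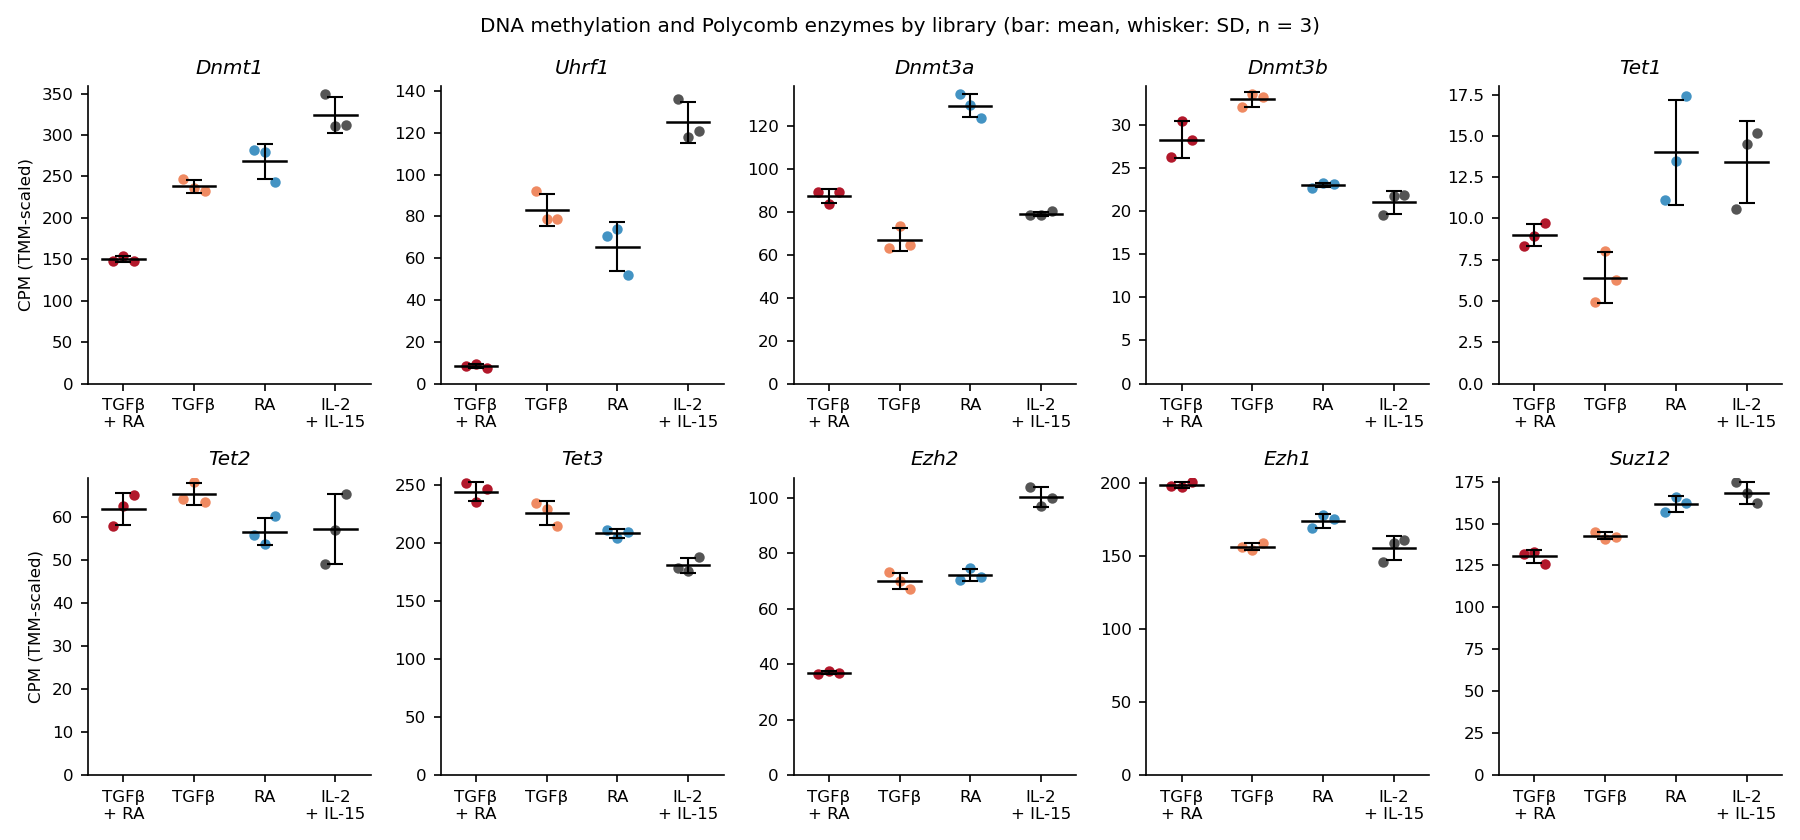
Level of each gene in every library, in TMM-scaled CPM (linear axes from 0), for the 4 groups; points are libraries, bars the means and whiskers the SD of 3. Uhrf1 lies between 7.39 and 9.32 in TGFβ + RA and between 118 and 136 in IL-2 + IL-15, while the Tet2 libraries of all groups lie between 49.1 and 68.2.

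The de novo enzymes moved apart from the maintenance pair and from each other. Dnmt3a (chr12:3806007-3914443, plus strand) had 89.3, 83.6 and 89.2 CPM in TGFβ + RA, 63.4, 73.4 and 64.7 in TGFβ, 135, 129.9 and 124 in RA, and 78.5, 78.5 and 80.4 in IL-2 + IL-15. All 3 RA libraries stood above every other library, and in CPM all 3 TGFβ libraries stood below. In TPM, TGFβ (13.2 to 15.3) overlapped IL-2 + IL-15 (14.5 to 14.9). RA alone raised it by 0.71 ± 0.06 on the log2 scale (1.64-fold, adjusted p 1.38e-06; 0.76 without RA replicate 3), TGFβ alone gave -0.24 ± 0.06 (adjusted p 0.00506), and the combination gave 0.14 ± 0.06. That last call (adjusted p 0.0455) was lost in 7 of 12 alternative settings, so TGFβ + RA and IL-2 + IL-15 are neighbours that are not firmly told apart. The locus also holds the antisense gene Dnmt3aos, which overlaps 0.799% of the Dnmt3a exon bases, and the strand setting of the counting is not given in the sources used here.

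Dnmt3b (chr2:153649450-153687730, plus strand) is the other de novo enzyme and had fewer reads than Dnmt3a in every library. It had 26.2, 30.4 and 28.2 CPM in TGFβ + RA, 32.0, 33.6 and 33.2 in TGFβ, 22.7, 23.2 and 23.1 in RA, and 19.5, 21.7 and 21.9 in IL-2 + IL-15. Both groups with TGFβ stood above both groups without it in every library. Its log2 fold change against IL-2 + IL-15 was 0.65 ± 0.07 in TGFβ (1.56-fold, adjusted p 4.07e-06), 0.43 ± 0.07 in TGFβ + RA (adjusted p 7.58e-05) and 0.13 ± 0.07 in RA (adjusted p 0.19). The order was TGFβ, TGFβ + RA, RA and IL-2 + IL-15, and its last step was not called. The first step, -0.22 for TGFβ + RA against TGFβ (adjusted p 0.0159), was not called without TGFβ replicate 2 (adjusted p 0.0543) or without TGFβ + RA replicate 1 (adjusted p 0.0714).

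Dnmt3a counts per kilobase were 1.05, 0.845 and 0.97 times those of Dnmt3b in TGFβ + RA, 0.608, 0.671 and 0.597 times in TGFβ, 1.83, 1.72 and 1.65 times in RA, and 1.23, 1.11 and 1.13 times in IL-2 + IL-15. No group overlapped another in this ratio: RA gave the highest values and TGFβ the lowest. With the length of the longest transcript in place of all exons, an alternative added after the data were seen, the means were 1.39 in TGFβ + RA, 0.909 in TGFβ, 2.52 in RA and 1.68 in IL-2 + IL-15. Which of the 2 enzymes was higher in TGFβ + RA thus depended on the length chosen, and the order of the groups did not.

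**Figure D2:**
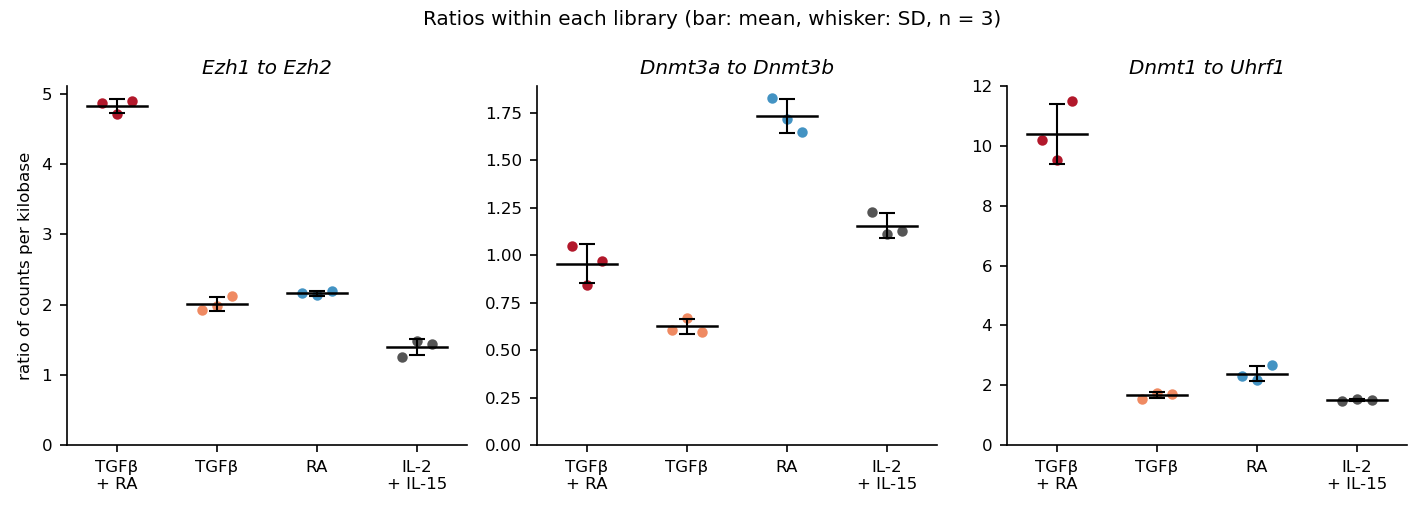
Ratio of counts per kilobase within each library for Ezh1 to Ezh2, Dnmt3a to Dnmt3b and Dnmt1 to Uhrf1 (linear axes from 0, union of annotated exons); points are libraries, bars the means and whiskers the SD of 3. TGFβ + RA gives the highest ratio in the first and last panel (4.83 and 10.4 on average), and RA gives the highest in the middle one (1.73).

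Of the 3 dioxygenases, Tet1 fell with TGFβ, Tet3 rose in every comparison with IL-2 + IL-15, and Tet2 was never called in the main model. Tet1 (chr10:62804570-62908996, minus strand) was the lowest of the 10 members per length in every group, at 2.02 ± 0.131, 1.43 ± 0.347, 2.79 ± 0.729 and 2.69 ± 0.503 TPM in TGFβ + RA, TGFβ, RA and IL-2 + IL-15 (SD, n = 3 each). It had 8.36, 8.91 and 9.71 CPM in TGFβ + RA, 4.94, 8.02 and 6.29 in TGFβ, 11.1, 13.5 and 17.4 in RA, and 10.6, 14.5 and 15.2 in IL-2 + IL-15, from as few as 129 counts in a library. In CPM, the libraries with TGFβ lay below those without it, and RA and IL-2 + IL-15 overlapped. In TPM, TGFβ + RA (1.9 to 2.16) overlapped RA (from 2.14) and IL-2 + IL-15 (from 2.11). TGFβ gave a log2 fold change of -1.07 ± 0.19 against IL-2 + IL-15 (2.1-fold lower, adjusted p 0.000542) and TGFβ + RA one of -0.58 ± 0.19 (adjusted p 0.0156), and the second was not called without TGFβ + RA replicate 1 (-0.53, adjusted p 0.0502) or without replicate 3 of IL-2 + IL-15 (-0.48, adjusted p 0.0666). The step between the groups with TGFβ, 0.49 for TGFβ + RA against TGFβ, was not called (adjusted p 0.0596), although 5 of 12 alternative settings called it. Between RA and IL-2 + IL-15 the difference was 0.06, with a 95% interval of -0.3 to 0.41.

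Tet2 (chr3:133463679-133545139, minus strand), known in blood cells as a brake on clonal expansion, had 57.8, 62.6 and 65.1 CPM in TGFβ + RA, 64.2, 68.2 and 63.4 in TGFβ, 55.9, 53.8 and 60.1 in RA, and 49.1, 57.0 and 65.4 in IL-2 + IL-15. The IL-2 + IL-15 libraries spread over nearly the whole range of the 12. Its log2 fold changes against IL-2 + IL-15 were 0.11 (95% interval -0.06 to 0.28) in TGFβ + RA, 0.19 (0.02 to 0.36, adjusted p 0.0937) in TGFβ and -0.02 (-0.19 to 0.15) in RA. Without IL-2 + IL-15 replicate 3, the highest of its group, the first was 0.22 (adjusted p 0.0241) and the second 0.30 (adjusted p 0.00832). With all libraries the second was also called under total counts (0.25, adjusted p 0.0264) and under the replicate block (0.20, adjusted p 0.0394). The smallest adjusted p in its 7 tests of the main model was 0.0615, for TGFβ against RA (0.21). That difference stayed uncalled in 7 of 12 alternative settings and was called in the rest, among them without RA replicate 3 (0.24, adjusted p 0.0408).

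Tet3 (chr6:83362373-83459084, minus strand) was the most abundant of the Tet genes per length, at 50.7 ± 2.24 TPM in TGFβ + RA and 33.4 ± 1.04 TPM in IL-2 + IL-15. Its values were 251, 235 and 246 CPM in TGFβ + RA, 234, 229 and 214 in TGFβ, 211, 204 and 209 in RA, and 178, 176 and 188 in IL-2 + IL-15. The groups did not overlap, and all 9 libraries that received a factor stood above the 3 that did not. Its log2 fold changes against IL-2 + IL-15 were 0.44 ± 0.05 in TGFβ + RA (adjusted p 2.82e-06), 0.32 ± 0.05 in TGFβ (adjusted p 0.000101) and 0.21 ± 0.05 in RA (adjusted p 0.00554). The steps between TGFβ + RA and TGFβ (0.11, adjusted p 0.0684) and between TGFβ and RA (0.12, adjusted p 0.0515) were not called. The first stayed uncalled in all 12 alternative settings. The second stayed uncalled in 8 of 12 and was called in the rest, among them total counts (0.20, adjusted p 0.00291).

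Among the PRC2 genes, the catalytic subunits went opposite ways. Ezh2 (chr6:47530139-47595341, minus strand) had 36.5, 37.5 and 36.7 CPM in TGFβ + RA, 73.1, 70.0 and 67.2 in TGFβ, 70.4, 74.8 and 71.5 in RA, and 104, 97.0 and 100.1 in IL-2 + IL-15. TGFβ and RA overlapped in CPM, with IL-2 + IL-15 above both and TGFβ + RA below both. In TPM, TGFβ (34.5 to 37.9) stood above RA (31.4 to 34.1). It was 2.72-fold lower in TGFβ + RA than in IL-2 + IL-15 (log2 fold change -1.44 ± 0.05, adjusted p 4.6e-11), and either factor alone gave about the same smaller change, -0.52 ± 0.05 for TGFβ and -0.47 ± 0.05 for RA. Between TGFβ and RA the difference was -0.04, with a 95% interval of -0.14 to 0.05. On the opposite strand, Gm26625 overlaps 2.61% of the Ezh2 exon bases.

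Ezh1 (chr11:101191115-101226463, minus strand), the other catalytic subunit, had 198, 197 and 201 CPM in TGFβ + RA, 156, 154 and 159 in TGFβ, 169, 178 and 175 in RA, and 146, 159 and 161 in IL-2 + IL-15. TGFβ + RA stood above all other libraries, and TGFβ and IL-2 + IL-15 overlapped in CPM. In TPM, TGFβ (71.7 to 73.1) stood above IL-2 + IL-15 (60.5 to 67.1). Its log2 fold change against IL-2 + IL-15 was 0.35 ± 0.04 in TGFβ + RA (1.28-fold, adjusted p 1.18e-05) and 0.01 in TGFβ (95% interval -0.08 to 0.1). RA alone gave 0.16 ± 0.04 (adjusted p 0.0149), which was not called with no filter on low counts (adjusted p 0.0538) or with only the 6 libraries of both groups in the fit (adjusted p 0.0628).

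Ezh1 counts per kilobase were 4.87, 4.71 and 4.9 times those of Ezh2 in the TGFβ + RA libraries, 1.92, 1.98 and 2.12 times in TGFβ, 2.16, 2.13 and 2.2 times in RA, and 1.26, 1.48 and 1.44 times in IL-2 + IL-15. Every library with a factor stood above every library without one. By the longest transcript the means were 3.56 in TGFβ + RA, 1.48 in TGFβ, 1.6 in RA and 1.03 in IL-2 + IL-15. Ezh1 was thus clearly the more abundant catalytic subunit transcript per length in TGFβ + RA by either length, and in IL-2 + IL-15 the longest transcript put both at nearly the same level.

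Suz12 (chr11:79993106-80034123, plus strand), the scaffold of the PRC2 core, fell in both groups with TGFβ by a small amount. It had 132, 133 and 126 CPM in TGFβ + RA, 145, 141 and 142 in TGFβ, 157, 166 and 162 in RA, and 175, 168 and 162 in IL-2 + IL-15. In CPM, RA and IL-2 + IL-15 overlapped, and both stood above TGFβ, which stood above TGFβ + RA. In TPM, TGFβ (98.2 to 102) overlapped RA (95.0 to 105) and IL-2 + IL-15 (101 to 109). The log2 fold changes against IL-2 + IL-15 were -0.37 ± 0.04 in TGFβ + RA (1.29-fold lower, adjusted p 6.45e-06), -0.24 ± 0.04 in TGFβ (adjusted p 0.000633) and -0.06 in RA (95% interval -0.14 to 0.03). TGFβ + RA against TGFβ gave -0.13 (adjusted p 0.0263), which was lost in 5 of 12 alternative settings. Gm26563 on the opposite strand overlaps 3.6% of the Suz12 exon bases.

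Counted together, 9 of the 10 members were called in TGFβ + RA against IL-2 + IL-15, 4 higher and 5 lower, where 63.2% of all tested genes were called (30.8% higher, 32.4% lower). In TGFβ against IL-2 + IL-15, 8 were called, 2 higher and 6 lower, beside 43.1% of all genes (20.7% higher, 22.4% lower). RA against IL-2 + IL-15 gave 6 calls, 3 higher and 3 lower, beside 26.7% (12.4% higher, 14.3% lower). These 3 comparisons share the IL-2 + IL-15 libraries. TGFβ + RA against TGFβ gave 7 calls, 2 higher and 5 lower, beside 43.0% (20.3% higher, 22.7% lower). TGFβ + RA against RA gave 9, 3 higher and 6 lower, beside 60.2% (29.4% higher, 30.8% lower), and TGFβ against RA gave 7, 2 higher and 5 lower, beside 52.6% (26.7% higher, 25.9% lower). Whether the counts of these 10 members differ from the shares of all genes was not tested. Scaling by total counts in place of TMM moved the share of higher calls among all genes to 60.3%, against 48.0%, for TGFβ against IL-2 + IL-15, and to 62.4%, against 50.8%, for TGFβ against RA. It changed the sign of no called member.

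The interaction asks whether RA did the same with TGFβ present as without it. RA added to TGFβ gave a log2 fold change of -3.31 in Uhrf1, against -0.93 for RA added to IL-2 + IL-15, a difference of -2.38 ± 0.18 (adjusted p 2.39e-06). In Ezh2 the same values were -0.92 with TGFβ and -0.47 without it (difference -0.45 ± 0.07, adjusted p 0.000418), and in Dnmt1 -0.67 with TGFβ and -0.27 without it (-0.39 ± 0.09, adjusted p 0.00704). Dnmt3a was raised by RA less with TGFβ than without it (0.38 and 0.71, difference -0.33 ± 0.08, adjusted p 0.0119). Dnmt3b gave -0.22 with TGFβ and 0.13 without it (-0.34 ± 0.09, adjusted p 0.0208). All 5 interactions that were called were negative, in a test that called 19.3% of all genes (6.95% positive and 12.3% negative), and these 5 were also called without RA replicate 3. Tet1, Tet2, Tet3, Ezh1 and Suz12 were not called, with Ezh1 closest at 0.18 ± 0.06 (adjusted p 0.0603).

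**Figure D3:**
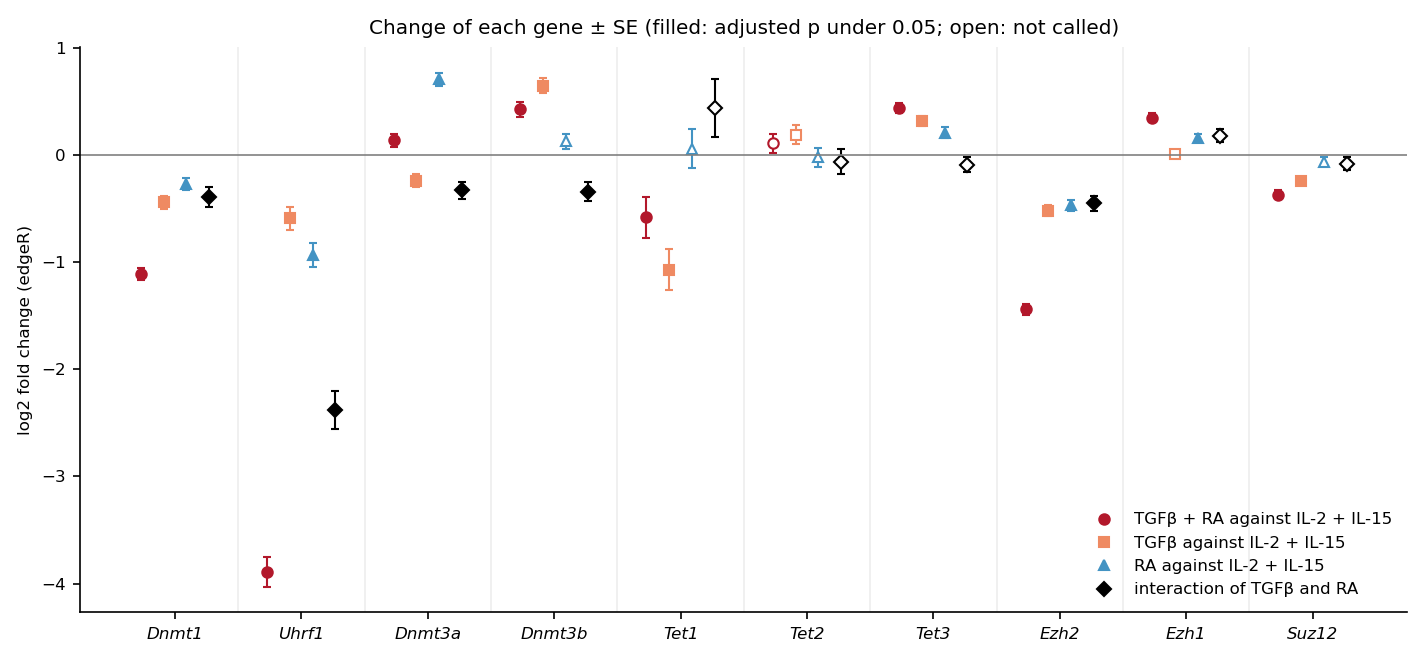
Log2 fold change of each gene from the edgeR model with its SE, for the 3 comparisons with IL-2 + IL-15 and for the interaction (the effect of RA with TGFβ minus that without it); filled symbols have an adjusted p under 0.05. Uhrf1 in TGFβ + RA (-3.89) lies far below all other values, and all filled interaction symbols lie below 0.

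Transcripts of DNA replication and cell division fell alongside the maintenance pair and Ezh2. Of a list of 30 S phase and proliferation genes, all 30 were called lower in TGFβ + RA against IL-2 + IL-15 (median log2 fold change -1.73, from -4.34 in Ccna2 to -0.31 in Mcm4; median of all tested genes 0.002). Among all tested genes, 32.4% were called lower in TGFβ + RA, 22.4% in TGFβ and 14.3% in RA against IL-2 + IL-15. The interaction was called negative in 12.3% of them. The summed level of the list was 1016 to 1066 CPM in TGFβ + RA, 2717 to 2917 in TGFβ, 2069 to 2503 in RA and 3535 to 3859 in IL-2 + IL-15, which is the same order of groups as in Uhrf1, and RA replicate 3 was again the lowest of its group. In TGFβ, 24 of 30 were lower and none higher (median -0.42), and 14 were called without TGFβ replicate 2. In RA, 26 of 30 were lower and none higher (median -0.54). The interaction was called negative in 26 of the 30 and positive in none (median -0.97). Among these genes the replicative polymerase subunit Pole gave -2.09, the topoisomerase Top2a -2.61 and the proliferation marker Mki67 -3.73 in TGFβ + RA against IL-2 + IL-15. The part of a change in dividing cells in the values of Uhrf1, Dnmt1 and Ezh2 was not tested. Uhrf1 at -3.89 lay in the lower reach of that list, and Ezh2 at -1.44, Dnmt1 at -1.11 and Suz12 at -0.37 lay above its median.

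**Figure D4:**
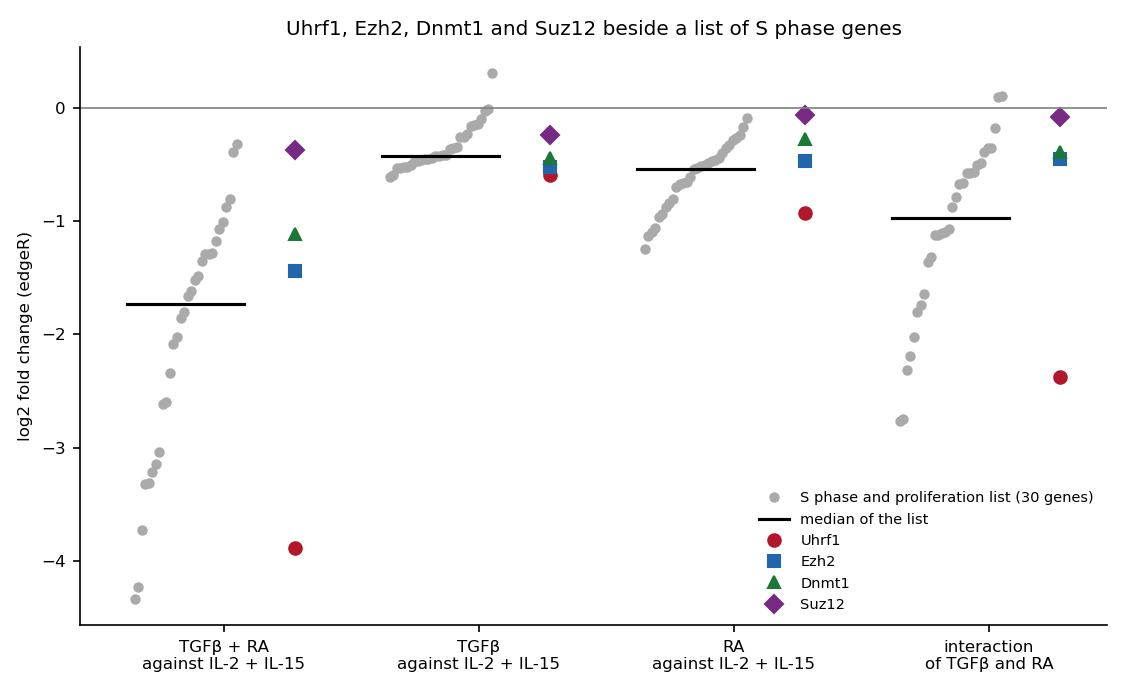
Log2 fold change of the 30 S phase and proliferation genes (grey points, sorted; black bar, their median) beside Uhrf1, Ezh2, Dnmt1 and Suz12 in the 3 comparisons with IL-2 + IL-15 and in the interaction. The list's median is -1.73 in TGFβ + RA, and Uhrf1 (-3.89) lies below it while the other 3 lie above it.

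The genes whose levels followed each member most closely were listed by Pearson's correlation of log2 CPM over the 12 libraries among 9564 genes, which share libraries and groups, so the values describe only the pattern. Closest to Uhrf1 were the replication licensing gene Cdc6 (0.999) and the condensin and kinesin genes Ncaph and Kif18b (0.998 each). Closest to Dnmt1 was the replication clamp Pcna (0.995), and Nup205 was also close (0.994). Ezh2 was closest to Ndufa4 (0.995) and to the replicative helicase subunit Mcm3 (0.993). Dnmt3a was closest to Ttpal and to the integrin gene Itga4 (0.976 each), Dnmt3b to Cd79b (0.971), Tet1 to Rere (0.967), Tet2 to Trip11 (0.936), Tet3 to Tbc1d4 (0.976), Ezh1 to Snw1 (0.977) and Suz12 to Umps (0.981). Among the members themselves Uhrf1 ran with Ezh2 (0.97) and Dnmt1 (0.96) and against Ezh1 (-0.93), while Dnmt3a ran with none of these 3 (0.06 with Dnmt1, -0.12 with Uhrf1 and -0.06 with Ezh2).

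Of 22 listed partners of DNA methylation outside the 10 members, 19 were tested, and in TGFβ + RA against IL-2 + IL-15 8 were called higher and 4 lower (median 0.2). These calls are near the 63.2% of all tested genes called there, so the count shows nothing particular to the list, and the counts of the lists that follow are to be read beside the same shares (63.2% in TGFβ + RA, 43.1% in TGFβ and 26.7% in RA). The lower ones included the chromatin remodeler Hells, which is needed for normal DNA methylation, and its partner Cdca7. Cdca7 had 7.52, 7.18 and 8.61 CPM in TGFβ + RA, against 38.7, 40.6 and 39.4 in IL-2 + IL-15 (log2 fold change -2.35 ± 0.09), and stood at 17.9 to 19.2 in TGFβ and 28.9 to 34.7 in RA. Hells gave -1.67 ± 0.07 in TGFβ + RA, -0.35 in TGFβ and -0.55 in RA. The methyl-CpG binding zinc finger gene Zbtb38 had the group order of Dnmt3a: 48.5, 47.3 and 48.8 CPM in TGFβ + RA, 27.3, 26.9 and 26.7 in TGFβ, 80.8, 74.5 and 67.2 in RA, and 46.8, 44.5 and 43.0 in IL-2 + IL-15. Uhrf2, the paralog of Uhrf1, gave -0.13 in TGFβ + RA against IL-2 + IL-15 (adjusted p 0.0295). In TGFβ 7 of the 19 were called higher and 5 lower, and in RA 3 higher and 2 lower.

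Of 8 further PRC2 subunits, 1 was called higher and 5 lower in TGFβ + RA against IL-2 + IL-15 (median -0.30). The 1 that rose was Phf1, which guides PRC2 to its targets, at 263, 245 and 249 CPM in TGFβ + RA, 174, 181 and 175 in TGFβ, 107, 109 and 140.4 in RA and 121, 127 and 132 in IL-2 + IL-15 (log2 fold change 0.99 ± 0.08, adjusted p 2.09e-07). Its paralog Phf19 gave -1.22 in the same comparison (adjusted p 4.32e-05). The core subunit Eed gave -0.51, the histone binding subunit Rbbp7 -0.67 ± 0.04 and the accessory subunit Aebp2 -0.32 ± 0.04. In TGFβ 1 was higher and 2 lower, and in RA 1 higher, which was Jarid2 (0.47), and 1 lower, which was Aebp2 (-0.16, adjusted p 0.0174). The Aebp2 call was lost in 5 of 12 alternative settings (adjusted p 0.0693 to 0.124): without IL-2 + IL-15 replicate 2 or 3, without RA replicate 1 or 2, and with only the 6 libraries of both groups. Without RA replicate 3, Phf1 was called lower in RA (-0.22, adjusted p 0.00434), against -0.09 (adjusted p 0.451) with it.

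All 22 listed subunits of Polycomb repressive complex 1, some forms of which bind the mark that PRC2 places, were tested. In TGFβ + RA against IL-2 + IL-15 7 were higher and 5 lower (median 0.09), in TGFβ 4 and 4, and in RA 2 and 2, where 8 were called in all without RA replicate 3. The variant complex gene Bcorl1 gave -1.33 ± 0.08 in TGFβ + RA, and Scmh1 and Phc3, which belong to canonical complexes, gave 0.97 ± 0.08 and 0.49 ± 0.06. Among 5 tested erasers of Polycomb marks, 3 were higher and 1 lower in TGFβ + RA. The paralogs Asxl1 and Asxl2, which are partners of the histone H2A deubiquitinase, went opposite ways (-0.82 ± 0.04 and 0.75 ± 0.04), and the demethylase gene Kdm6b, whose enzyme removes the PRC2 mark, gave 0.52 ± 0.06. In TGFβ 2 of the 5 were higher and 1 lower, and in RA 1 and 1.

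A last list held 8 early memory genes, several of which are known as targets of Dnmt3a or PRC2 silencing in effector CD8 T cells. In TGFβ + RA against IL-2 + IL-15 1 was called higher and 5 lower (median -0.70), in TGFβ 2 higher and 1 lower (median 0.08), and in RA 6 lower and none higher (median -0.91). The interleukin receptor gene Il7r gave -0.87 ± 0.08 in TGFβ + RA, 0.13 in TGFβ (adjusted p 0.197) and 0.06 in RA (adjusted p 0.602). The transcription factor gene Foxo1 gave 0.27 ± 0.07 in TGFβ + RA, 0.65 ± 0.07 in TGFβ and -0.39 ± 0.07 in RA, so it was lowest in the RA group, where Dnmt3a was highest. The libraries measure transcripts, and neither DNA methylation nor histone marks were measured here.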

How the data were processed

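RNA from cultured CD8 T cells was isolated with an RNeasy Micro kit and made into stranded mRNA libraries with an Illumina TruSeq kit, per the labels' protocols. Reads were aligned with STAR and counted with featureCounts on GRCm38, per the submitters' processing notes. Their versions, the annotation release, the strand setting and how multi-mapping reads were handled are not given in the sources used here. What the authors deposited are whole-number counts per gene without normalization. None of the 46078 rows lacked a gene symbol, which came with the deposited counts. Of the identifiers, 98.0% were in GENCODE for GRCm38, which gave gene positions and lengths.

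All 12 libraries were used, grouped by treatment. Genes were filtered with filterByExpr (minimum count 10), which kept at least 99.9% of each library's counts, scaled by TMM and fitted in 1 quasi-likelihood model of edgeR 4.0.16 in R 4.3.3 with a mean per group, no covariate and 8 residual degrees of freedom. Calls are two-sided at a Benjamini-Hochberg adjusted p under 0.05 over 14009 genes. An SE is the log2 fold change divided by the square root of the F statistic, and 95% intervals are normal intervals from that SE. TPM used the union of annotated exons. The script was tested on simulated counts. The members, gene lists and contrasts were chosen with earlier results of these data known. All 10 members are named, and from each list up to 3 genes with the smallest adjusted p; Uhrf2, Phf19, Eed, Jarid2, Ccna2 and Mcm4 were named after their values were seen. A few genes taken by these rules are not reported here. Epop and Ezhip were not matched by symbol and were not analysed here. Alternatives were size factors of DESeq2 1.42.0, its Wald test, total counts, no filter, a replicate block, only the 6 libraries compared, and leaving out each library.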

Additional observations from a re-analysis of the deposited data

Results flagged for a closer look

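In 5 members the effect of RA with TGFβ differed from its effect without TGFβ, by the interaction test of the edgeR model. The differences on the log2 scale were -2.38 in Uhrf1, -0.45 in Ezh2, -0.39 in Dnmt1, -0.34 in Dnmt3b and -0.33 in Dnmt3a. In Uhrf1, Ezh2 and Dnmt1 RA lowered the level both with TGFβ and without it, by more with it. In Dnmt3a RA raised the level both with TGFβ and without it, by less with it. In Dnmt3b RA lowered the level with TGFβ and was not called without it.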

How the results depend on the processing

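No called member changed direction under any alternative that was run. Of 890 values of members under alternatives, 838 kept their side of the threshold, 30 lost a call and 22 gained one. The sign changed in 8 values, all of members that were not called. The number of members called moved by at most 2: against IL-2 + IL-15, TGFβ + RA gave 7 to 9 when 1 library was left out, and with the replicate block the counts were 8 for TGFβ + RA, 9 for TGFβ, 6 for RA and 5 for the interaction. Replicate numbers were not taken as pairs in the main model, because the labels give no shared source. Same-numbered libraries were nonetheless more often alike: 10 of 18 such pairs had deviations with a correlation over 0.1, against 1 of 36 with different numbers. What they share was not tested, and the main p-values do not take it into account, while the replicate block does. Calls lost in 1 or more settings were those of Ezh1 in RA, of Dnmt3a and Tet1 in TGFβ + RA (all against IL-2 + IL-15), of Dnmt3b and Suz12 in TGFβ + RA against TGFβ, and of Dnmt1, Uhrf1, Ezh1 and Suz12 in TGFβ against RA. With total counts, 5 erasers of Polycomb marks were called in TGFβ, against 3, and with only the 6 libraries compared 5 early memory genes, against 3. Without RA replicate 3, the interaction was called in 4158 genes, against 2702 with all libraries. Depth limits mainly Tet1, with as few as 129 counts in a library.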
